A study of Mus musculus with 9 samples.

Results

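N1E-115 is a mouse neuroblastoma line, a tumour line of the sympathetic nervous system. The 6 arrays of N1E-115 RNA labelled as having Tcof1 either overexpressed or knocked down were set against the 3 arrays labelled wildtype, which together make up all 9 arrays of the series. Each manipulated group had 3 arrays and entered with a weight of 0.5, so that a pooled change is the mean of the overexpressed and knockdown changes. Arrays carry the letters A, B and C within each group, and values below follow that order. The labels say that the overexpressed gene is the mouse gene, but nothing was found there on the vector, the means of knockdown, the time after it or any clonal selection. None of the 9 arrays is labelled as a vector-only or non-targeting control, so whatever else the manipulated cells shared cannot be told apart from the change in Tcof1. Nothing in the labels says that the letters stand for separate cultures, so the p-values rest on array-to-array spread that could be purely technical.

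Tcof1 encodes treacle, a nucleolar phosphoprotein that recruits RNA polymerase I to ribosomal DNA and takes part in modifying ribosomal RNA. Loss of treacle function causes Treacher Collins syndrome, in which neural crest cells of the face divide too little and die, and the sympathetic lineage that neuroblastoma comes from also arises from neural crest. Cell division draws on waves of transcripts that most tissues share: E2F factors drive the genes of DNA replication in late G1, and B-Myb with its partner factors drives the genes of mitosis. The question here was which transcripts moved the same way whether Tcof1 was raised or lowered.

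Array medians lay between 164.1 and 185.95 intensity units, with no order by group, and log2 values of arrays of the same group correlated at 0.9725 to 0.9782, those of wildtype with manipulated arrays at 0.9559 to 0.9782. Of 13 measured markers of sympathetic neuroblastoma, 12 lay above the median probe set (175.22 units), among them Th, the rate-limiting enzyme of catecholamine synthesis, at a mean of 3387 units over the 9 arrays. Ddc was the marker below it, at 42.1 units. Of 24 blood and immune cell markers 3 lay above that median, against 7 of 18 Schwann cell and glia markers and 12 of 28 fibroblast and matrix markers, which neuroblastoma lines also express. The summed blood markers ran from 2945 to 3178 units in wildtype, 2488 to 2620 in overexpressed and 3101 to 3606 in knockdown arrays. The summed fibroblast markers ran from 59086 to 61458, 53181 to 55576 and 60135 to 63964 units in the same order. The summed glia markers ran from 10737 to 13645, 9552 to 11662 and 11319 to 11511 units, so that the knockdown arrays lay inside the wildtype range and the overexpressed arrays overlapped it. The summed sympathetic neuroblastoma markers ran from 59793.5 to 62975.2 units in wildtype, 49990.5 to 56341.1 in overexpressed and 60311.6 to 63330.2 in knockdown arrays. Fibroblast, blood and sympathetic marker sums were thus all lower than every wildtype array in overexpressed cells alone.

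Tcof1 itself, which the labels give as raised in one manipulated group and lowered in the other, was not called in the pooled contrast. Its 3 probe sets had pooled log2 changes of 0.33 ± 0.18 (SE; adjusted p = 0.41), 0.12 ± 0.17 (adjusted p = 0.822) and 0.22 ± 0.14 (adjusted p = 0.496). On probe set 1423600_a_at, Tcof1 intensities were 143.1, 156.3 and 149.8 in wildtype arrays, 385.5, 232.4 and 263.6 in overexpressed arrays and 134.8, 112.1 and 133.0 in knockdown arrays. The overexpressed arrays were all above the wildtype arrays, and the knockdown arrays were all below them. The log2 changes there were 0.87 in overexpressed and -0.22 in knockdown cells, and on probe set 1423601_s_at 0.63 and -0.40. No Tcof1 probe set was called in knockdown over wildtype alone. On probe set 1424643_at the knockdown arrays, at 219.8, 228.9 and 204.9 units, lay within the wildtype range of 167.8 to 232.6 units.

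The pooled contrast called 674 of 22626 probe sets (2.98%) at an adjusted p under 0.05. Of these, 320 were higher (1.41%) and 354 lower (1.56%) in the manipulated cells. An unadjusted p under 0.05 in limma was found for 3825 of the 22626 probe sets, the background for the unadjusted counts below. A pooled call can come from 1 group alone: in 611 of the 674 the overexpressed change was the larger, in 357 the overexpressed and knockdown groups themselves differed, and in 22 their changes had opposite signs. A call was therefore counted as moving the same way only if all 6 manipulated arrays lay on one side of all 3 wildtype arrays and the smaller of the group changes was at least 0.5 of the larger. That left 235 probe sets (1.04%), 127 higher (0.561%) and 108 lower (0.477%). Of the 235, 220 carried a single gene symbol, which gave 207 named genes. Both changes of each probe set use the same 3 wildtype arrays, so a wildtype array that stands off in a gene shifts both together. The criterion itself fixes the direction and the separation of these probe sets, and neither is offered as evidence.

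The median size of change among the 235 was 0.787 log2 units in overexpressed and 0.6349 in knockdown cells. The overexpressed change was the larger in 185 and the knockdown change in 50. Just inside the ratio of 0.5 were Pcna (0.503), Banf1 (0.504) and Nup43 (0.506), and just outside it Tpm4 (0.4995), Sec22b (0.497) and Pttg1ip (0.495). Taken alone, the overexpressed cells differed from wildtype in 2169 probe sets and the knockdown cells in 3. Of the 235 probe sets, 218 were also called in overexpressed over wildtype alone, 2 in knockdown over wildtype alone, and 17 in neither.

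**Figure D1:**
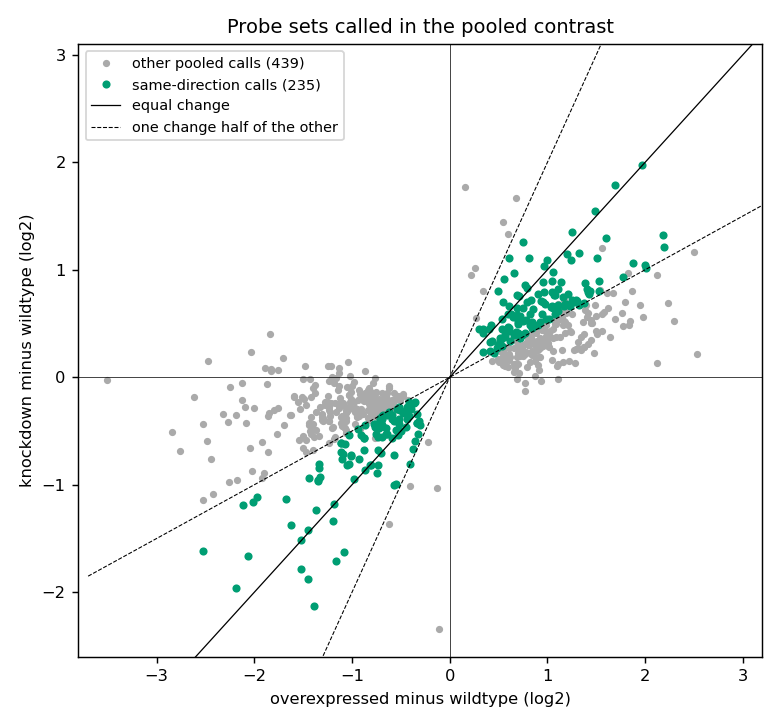
Overexpressed change (horizontal) against knockdown change (vertical), both as log2 differences from wildtype, for the 674 probe sets called in the pooled contrast. Green points are the 235 that moved the same way, which lie between the dashed lines where one change is 0.5 of the other; grey points are the other calls, most of them nearer the horizontal axis because the overexpressed change was the larger in 611 of 674.

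The wildtype arrays were not alike in these genes. Among the 127 probe sets that were higher in the manipulated cells, wildtype C was the wildtype array nearest to them in 96 and wildtype A the farthest in 99. Among the 108 lower probe sets, wildtype C was nearest in 75 and wildtype A farthest in 67. The number of pooled calls was 141 without wildtype A, 35 without wildtype B and 1168 without wildtype C, and 340 to 464 without any 1 manipulated array. The number moving the same way was 47, 16 and 616 without wildtype A, B and C. Of the 15 higher and 15 lower genes named by the rule, 3 and 1 were still called without wildtype B, 9 and 5 without wildtype A, and at least 11 and 10 without any of the other 7 arrays. Mcm5, Cenpn and Egr1 were called with each array left out in turn.

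Genes of DNA replication had the most calls among the 23 gene lists. Over all 12393 genes with a single symbol, each read by its brightest probe set as in the lists, 208 were called higher and 243 lower (3.64%). On those probe sets 91 higher and 61 lower genes moved the same way. Of 50 measured replication genes, 26 rose and 0 fell in the pooled limma contrast (39 higher and 0 lower at an unadjusted p under 0.05), and 12 of the 26 moved the same way. The median log2 change of the list was 0.64, made up of 0.96 in overexpressed and 0.38 in knockdown cells, against a pooled median of 0.01 over all 22626 probe sets. Relative to the wildtype mean, the list's median lay at -0.22, -0.02 and 0.22 in wildtype arrays A, B and C, at 0.96, 0.88 and 0.86 in the overexpressed arrays and at 0.45, 0.30 and 0.38 in the knockdown arrays. All 6 manipulated arrays were therefore above the highest wildtype array, but the lowest of them, knockdown B, exceeded wildtype C by less than the wildtype arrays differed among themselves. The count of 26 became 10 without wildtype A, 3 without wildtype B, 15 without overexpressed B, 16 without knockdown A and 17 without knockdown C, while the median stayed between 0.52 and 0.71 whichever array was left out.

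The replicative helicase, which unwinds the parental strands, held the member with the largest pooled change of the list. Mcm5, a subunit of the MCM ring, measured 150.0, 172.4 and 291.2 units in wildtype arrays, 860.5, 1145 and 868.9 in overexpressed arrays and 608.3, 477.8 and 469.3 in knockdown arrays. The 3 groups did not overlap, with knockdown between wildtype and overexpressed. Its pooled log2 change was 1.75 ± 0.19 (adjusted p = 0.00354), from 2.18 in overexpressed and 1.32 in knockdown cells. Of 10 measured helicase genes 7 rose, and 3 of them moved the same way. Gins1, a subunit of the GINS complex that joins MCM to make the active helicase, rose by 1.47 ± 0.22 (adjusted p = 0.00991), from 106.9, 208.7 and 263.3 wildtype units to 613.6 to 802.5 in overexpressed and 371.7 to 424.8 in knockdown arrays. Cdc45, the third component of that helicase, rose by 1.11 ± 0.22 (adjusted p = 0.0266). Mcm10, which helps to activate the helicase, was called as well (0.85 ± 0.12, adjusted p = 0.00718), but its knockdown arrays (427.6, 445.0 and 437.6 units) lay inside the wildtype range of 322.7 to 460.4. Gins1 lost its call without wildtype B (adjusted p = 0.0518), and Cdc45 was called only without wildtype C and without overexpressed C.

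Around the sliding clamp, 5 of 10 measured genes rose and all 5 moved the same way. Pcna, the clamp that holds DNA polymerase on its template, measured 2142, 2884 and 3511 units in wildtype, 7286, 7474 and 7023 in overexpressed and 4948, 4045 and 4602 in knockdown arrays. It rose by 1.03 ± 0.13 (adjusted p = 0.00619) and was called with each array left out in turn. Pclaf, a small protein that binds the clamp, rose by 1.52 ± 0.22 (adjusted p = 0.00826), from 293.8, 393.0 and 716.9 wildtype units to 1674 to 1900 in overexpressed and 834.5 to 1105 in knockdown arrays. A dimmer probe set of Pclaf did not pass the test (-0.22 ± 0.36). The clamp-loader subunits Rfc5, Rfc3 and Rfc4 had changes of 0.94 ± 0.15, 0.63 ± 0.12 and 0.99 ± 0.21.

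Of 7 measured genes of nucleotide supply 5 rose and 3 moved the same way. Rrm2, the regulated subunit of ribonucleotide reductase, measured 192.8, 288.5 and 534.9 units in wildtype, 1467, 1734 and 1273 in overexpressed and 898.0, 606.9 and 743.3 in knockdown arrays on its first-ranked probe set. It rose by 1.70 ± 0.25 (adjusted p = 0.00968), and its other 2 probe sets rose too, by 1.40 ± 0.24 and 1.83 ± 0.37. Tk1, the thymidine kinase of dividing cells, was among the most evenly changed members, at 1.24 in overexpressed and 1.09 in knockdown cells (pooled 1.16 ± 0.21, adjusted p = 0.0169). Its wildtype arrays read 317.5, 346.9 and 591.2 units and its 6 manipulated arrays 713.8 to 1114. Without wildtype B neither Rrm2 (adjusted p = 0.065) nor Pclaf (0.061) was called, and Tk1 lost its call without wildtype A or B (up to 0.104). Of 12 polymerase genes 5 rose and 1, Pola1, moved the same way. Of 11 origin licensing genes 4 rose and 0 moved the same way: Cdc6, which loads MCM rings, changed by 2.24 in overexpressed and 0.69 in knockdown cells.

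Mitotic genes moved with them. Of 50 measured, 19 rose and 0 fell in limma (41 higher and 2 lower at an unadjusted p under 0.05), 12 of the 19 moved the same way, and the median change was 0.66, from 0.85 in overexpressed and 0.45 in knockdown cells. The list's median lay at -0.35, 0.08 and 0.29 in wildtype arrays A, B and C, at 0.87, 0.96 and 0.75 in overexpressed arrays and at 0.54, 0.43 and 0.33 in knockdown arrays. Wildtype C was thus 0.04 log2 units below knockdown C and 0.64 above wildtype A. The count of 19 was 4 without wildtype A, 0 without wildtype B and 32 without wildtype C, and 6 to 10 without any 1 manipulated array. With limma and no wildtype B, 38 of the 50 still had an unadjusted p under 0.05 and a higher value.

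Among mitotic kinases and checkpoint genes 7 of 12 rose, and 6 of them moved the same way. Cdk1, the kinase that drives entry into mitosis, measured 1206, 1554 and 2012 units in wildtype, 3491, 3493 and 3141 in overexpressed and 2873, 2670 and 2773 in knockdown arrays. It rose by 0.97 ± 0.13 (adjusted p = 0.00697), with the lowest manipulated array 1.33 times the highest wildtype array. Pbk, a mitotic kinase, rose by 0.92 ± 0.18 (adjusted p = 0.0247), nearly alike in overexpressed (0.95) and knockdown cells (0.89). Aurka, the kinase of the spindle poles, rose by 0.83 ± 0.13 (adjusted p = 0.0101). Without wildtype B the adjusted p was 0.0518 for both Cdk1 and Aurka, and Pbk was called only without wildtype A and without wildtype C.

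Of 19 measured spindle and kinesin genes in the list 7 rose, and 2 of them, Anln and Kif23, moved the same way; of 8 chromosome structure genes 3 rose and 2 moved the same way. Tacc3, Cenpn and Ccnf are outside the list and were named for the size of their smaller change. Tacc3, which stabilises spindle microtubules, measured 27.2, 37.3 and 139.1 units in wildtype, 151.6, 292.6 and 215.2 in overexpressed and 243.5, 165.2 and 295.9 in knockdown arrays. Wildtype C stood within 12.5 units of overexpressed A, and the pooled change of 1.74 ± 0.38 (adjusted p = 0.0378) was called only without wildtype C when arrays were left out. Its 2 other probe sets had smaller changes of 0.74 ± 0.21 and 0.64 ± 0.16 that did not pass the test. Cenpn, a centromere protein that reads the CENP-A nucleosome, rose more firmly, by 1.16 ± 0.11 (adjusted p = 0.00168), from 392.6, 512.2 and 504.3 wildtype units to 1252 to 1450 in overexpressed and 756.8 to 934.2 in knockdown arrays. Its second probe set rose by 0.78 ± 0.18 (adjusted p = 0.0479). Ccnf, the cyclin F subunit of a ubiquitin ligase, rose by 1.31 ± 0.23 (adjusted p = 0.0167), although knockdown B, at 335.3 units, lay close to wildtype B, at 303.1. Ube2c, the ubiquitin-conjugating enzyme of the anaphase promoting complex, rose by 0.72 ± 0.11 (adjusted p = 0.0112). Ccnf and Ube2c were not called without wildtype A or wildtype B (adjusted p up to 0.0755 and 0.0809).

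**Figure D2:**
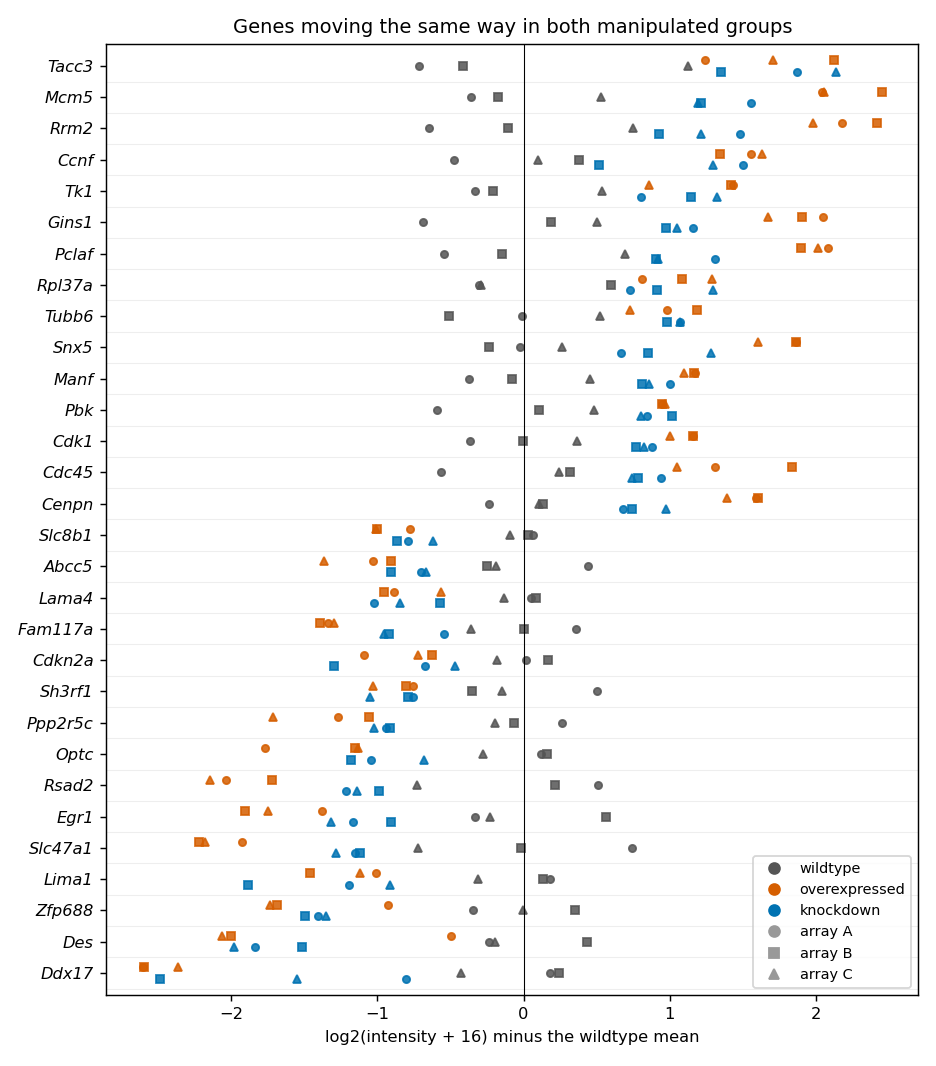
Values of the 15 higher and 15 lower genes ranked by the smaller of their group changes, on each of the 9 arrays, as log2(intensity + 16) minus the wildtype mean; colour gives the group and marker shape the array letter. In every row the 6 manipulated arrays lie on one side of the 3 wildtype arrays, as the choice of genes requires, and wildtype C is the nearest wildtype array in 11 of the 15 higher and 10 of the 15 lower genes.

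The promoters of 3 of the named higher genes are shown, picked because they hold the letters that E2F factors are known to bind. They also show how such letters sit beside the CCAAT boxes of cell cycle promoters. The windows are RefSeq's for assembly GRCm38.p6, from 250 bases before to 50 bases after the transcript start, written on the gene's strand. Capitals mark the E2F core letters (TTTNGCGC or TTTNCCGC), the CCAAT letters and the cell cycle homology letters (TTTGAA or TTCGAA), each searched on both strands and overlapping where they share bases. The windows are chr8:75109259-75109558 on the plus strand for Mcm5, chr9:65890073-65890372 on the plus strand for Pclaf and chr10:69352863-69353162 on the minus strand for Cdk1.
Mcm5: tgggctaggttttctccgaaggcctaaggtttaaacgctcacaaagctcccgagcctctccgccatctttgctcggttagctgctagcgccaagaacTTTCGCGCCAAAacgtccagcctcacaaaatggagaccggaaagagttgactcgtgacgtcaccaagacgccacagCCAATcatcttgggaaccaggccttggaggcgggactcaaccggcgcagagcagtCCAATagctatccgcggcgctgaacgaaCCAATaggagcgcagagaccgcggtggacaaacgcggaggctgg
Pclaf: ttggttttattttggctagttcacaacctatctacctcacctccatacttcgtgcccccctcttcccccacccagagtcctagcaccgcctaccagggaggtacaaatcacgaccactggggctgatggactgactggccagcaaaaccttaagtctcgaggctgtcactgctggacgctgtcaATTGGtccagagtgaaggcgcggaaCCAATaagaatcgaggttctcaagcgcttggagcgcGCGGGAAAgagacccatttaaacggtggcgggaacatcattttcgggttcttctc
Cdk1: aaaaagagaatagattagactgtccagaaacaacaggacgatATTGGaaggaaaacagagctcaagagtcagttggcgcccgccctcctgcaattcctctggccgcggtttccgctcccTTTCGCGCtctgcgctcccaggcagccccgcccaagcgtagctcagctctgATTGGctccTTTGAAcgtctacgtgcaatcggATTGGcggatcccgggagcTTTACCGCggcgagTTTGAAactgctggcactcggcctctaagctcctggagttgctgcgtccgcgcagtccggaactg

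In the Mcm5 window, 2 E2F matches on opposite strands overlap, so they make up a single run of capitals, and 3 CCAAT matches follow it. The Cdk1 window holds 2 E2F matches, 3 CCAAT matches and 2 cell cycle homology matches, and the Pclaf window 1 E2F match and 2 CCAAT matches. Of the 15 named higher genes 11 had a promoter, and only the 3 shown held the E2F letters (27.3%). Of the 15 named lower genes 10 had a promoter, and 2 of them, Zfp688 and Cdkn2a, held the E2F letters (20%). Among the 116 genes that moved higher in both groups, 97 had a promoter in the table, and 12.4% of those held the E2F letters and 52.6% a CCAAT match. Among the 91 lower genes, 70 had a promoter, with shares of 7.14% and 28.6%. Over the 9888 genes of the array with a promoter the shares were 5.32% and 38.1%, and over all 27025 promoters 3.57% and 37.9%. The cell cycle homology letters stood in 26.8% of the higher, 14.3% of the lower and 14.7% of the array's genes. The other letters searched were the E-box CACGTG (12.4%, 10% and 9.32%), the hypoxia letters NACGTG, which include every E-box (36.1%, 30.0% and 23.5%), and the GC box GGGCGG (68.0%, 65.7% and 57.5%). These shares describe the windows and had no test.

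The regulators above this programme moved less uniformly. Of 32 measured G1 and E2F regulators 5 rose, 2 fell and the median change was 0.16, and 3 moved the same way. E2f1, an activating E2F and itself an E2F target, measured 339.8, 478.7 and 633.0 units in wildtype, 846.4, 1042 and 1084 in overexpressed and 754.2, 741.4 and 760.8 in knockdown arrays. It rose by 0.85 ± 0.16 (adjusted p = 0.0217), but its dimmer probe set had a change of -0.06 ± 0.25 (adjusted p = 0.945). Cdk4, the G1 kinase that starts to inactivate the retinoblastoma protein, rose by 0.33 ± 0.07 (adjusted p = 0.028). Cdkn2a, the locus of the inhibitors p16INK4a and p19ARF, measured 446.9, 496.8 and 386.7 units in wildtype, 198.7, 279.5 and 261.6 in overexpressed and 270.5, 170.5 and 313.8 in knockdown arrays. It fell by 0.81 ± 0.19 (adjusted p = 0.0478), by 0.81 in each manipulated group. The annotation names the gene only, not which of these transcripts the probe set reads. Mybl2, which encodes B-Myb, rose by 1.22 ± 0.19 (adjusted p = 0.0108), and Mxd4, an antagonist of Myc, fell by 0.94 ± 0.19 (adjusted p = 0.0266), both with a knockdown change under 0.5 of the overexpressed one on their brightest probe sets. The dimmer Mybl2 probe set, at 0.80 in overexpressed and 0.76 in knockdown cells, was not called (0.78 ± 0.23). The dimmer Mxd4 probe sets were not called either (-0.76 ± 0.23, -0.11 ± 0.27 and -0.004 ± 0.31). Their knockdown changes were 0.18, 0.24 and 0.59.

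These regulator calls depended on single arrays. The 5 higher calls became 0 without wildtype B and 1 without wildtype A or knockdown A. They were 2 without overexpressed A, overexpressed B or knockdown B, and 3 without overexpressed C. The 2 lower calls became 0 or 1 without any array but wildtype C. In limma without wildtype B, 9 of the 32 were higher at an unadjusted p under 0.05. E2f1 lost its call without wildtype A, wildtype B, overexpressed B or knockdown A (adjusted p up to 0.104). Cdkn2a kept it only without wildtype C and without knockdown C (up to 0.21), Mybl2 lost it without wildtype B (0.0687), and Mxd4 kept it without wildtype C, overexpressed C or knockdown B (up to 0.141).

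In ribosome production, the process treacle acts in, no member met the criterion for moving the same way. Of 74 measured genes 7 rose and 0 fell in limma (21 higher and 4 lower at an unadjusted p under 0.05), but 0 moved the same way, and the median change was 0.34 in overexpressed and -0.01 in knockdown cells. Nop56, a scaffold of the snoRNPs that methylate ribosomal RNA, measured 1554, 1594 and 1838 units in wildtype, 4312, 3758 and 4099 in overexpressed and 1856, 1597 and 2013 in knockdown arrays. Its pooled change of 0.70 ± 0.09 (adjusted p = 0.00678) was carried by the overexpressed arrays, while the knockdown arrays overlapped wildtype. It was 1 of 3 called among 6 measured core snoRNP genes, all 6 of which had a higher pooled value. Their median lay at -0.08, -0.03 and 0.09 in wildtype, 0.46, 0.60 and 0.67 in overexpressed and 0.10, 0.10 and 0.17 in knockdown arrays, so the lowest knockdown array was just above wildtype C. Exosc2, a subunit of the RNA exosome, changed by 0.92 in overexpressed and 0.27 in knockdown cells, and Tsr1, which acts in maturing the small subunit, by 0.88 and 0.01. Among 16 genes of RNA polymerase I and its factors, 0 were called in the pooled limma contrast (1 at an unadjusted p under 0.05), with medians of 0.24 in overexpressed and -0.15 in knockdown cells. The 7 calls fell to 0 without wildtype B (19 higher at an unadjusted p under 0.05 in limma), rose to 11 without wildtype C and were 2 to 4 without any of the other 7 arrays.

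Cytosolic ribosomal proteins, of which 41 of 71 listed were measured, showed no called change on the brightest probe set of each gene. There 0 of 41 passed in limma, 1 of 41 had an unadjusted p under 0.05, and the median was -0.03. The named probe set of Rpl37a, a protein of the large subunit, is an exception in direction, since it rose by 1.02 ± 0.21 (adjusted p = 0.028) from 410.4, 783.5 and 414.5 wildtype units to 855.8 to 1281 in the manipulated arrays. Its name marks a type that can cross-hybridise, and the other 2 Rpl37a probe sets, with wildtype means of 19316 and 16877 units against 536.1, had changes of 0.06 ± 0.08 and -0.07 ± 0.08. Its call was also lost without any of 6 arrays (wildtype A, wildtype C, overexpressed B, overexpressed C, knockdown B and knockdown C; adjusted p up to 0.143). A dimmer probe set of Rpl22 was called lower, at -0.65 ± 0.14 (adjusted p = 0.0385 in limma). It changed by -1.02 in overexpressed and -0.28 in knockdown cells and did not meet the criterion. The brightest Rpl22 probe set, at 0.19, was not called.

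**Figure D3:**
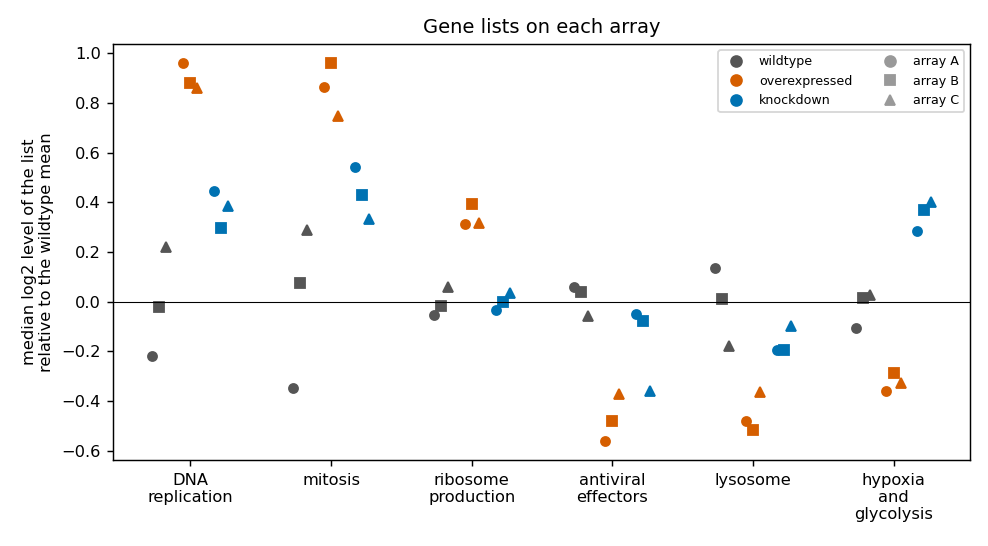
Median log2 level of 6 gene lists on each array, relative to the wildtype mean; colour gives the group and marker shape the array letter. In the replication and mitosis lists all 6 manipulated arrays lie above the 3 wildtype arrays, which themselves spread from -0.22 to 0.22 and from -0.35 to 0.29; ribosome production genes lie above the wildtype arrays on the overexpressed arrays alone, and hypoxia and glycolysis genes lie on opposite sides of wildtype.

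A minority of interferon response genes fell. Of 49 measured genes of the interferon response and MHC class I pathway, 7 fell and 0 rose in limma (17 lower and 1 higher at an unadjusted p under 0.05), 6 of the 7 being antiviral effectors, and 2 of the 7 moved the same way. A higher pooled value was found in 13 of the 49, and the median of the whole list was -0.35 in overexpressed and -0.05 in knockdown cells. The median over the 26 antiviral effectors was -0.47 in overexpressed and -0.12 in knockdown cells. On the median level of these effectors knockdown C, at -0.36, lay with the overexpressed arrays (-0.56, -0.48 and -0.37), while knockdown A and B, at -0.05 and -0.08, lay near the wildtype range of -0.06 to 0.06. Rsad2, which encodes the antiviral protein viperin, measured 1396, 1110 and 763.0 units in wildtype, 134.5, 180.2 and 205.7 in overexpressed and 513.8, 530.7 and 381.7 in knockdown arrays on its brightest probe set. The 3 groups did not overlap, and the pooled change was -1.83 ± 0.20 (adjusted p = 0.00352). Its other 2 probe sets fell as well, by 1.76 ± 0.34 and 1.54 ± 0.26.

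Ifit1, an antiviral protein that binds foreign RNA ends, measured 524.6, 484.8 and 395.5 units in wildtype, 110.5, 116.5 and 112.5 in overexpressed and 274.9, 256.1 and 203.0 in knockdown arrays. It fell by 1.40 ± 0.15 (adjusted p = 0.00352), by 1.90 in overexpressed and 0.89 in knockdown cells, just under the ratio of 0.5. Ifit2 moved the same way (-1.32 and -0.93, pooled -1.13 ± 0.18, adjusted p = 0.0116). Tapbp, the tapasin that loads peptides onto MHC class I, fell by 0.90 ± 0.10 (adjusted p = 0.0047), from 1047, 1022 and 811.9 wildtype units to 422.3 to 455.2 in overexpressed and 528.6 to 616.4 in knockdown arrays. Rsad2 on its brightest probe set, Ifit1 and Tapbp were each called with any 1 array left out. That Rsad2 set, at -2.52 in overexpressed and -1.14 in knockdown cells, did not meet the criterion. The Rsad2 set named by rank, 1421009_at, met it at -1.97 and -1.11. It lost its call without wildtype A or B (adjusted p up to 0.0942 in limma). The list's count of 7 was 4 without wildtype A and 3 without wildtype B. Of the 12 signalling genes 0 were called in limma, with 3 at an unadjusted p under 0.05, all lower. Their median was -0.25 in overexpressed and 0.05 in knockdown cells, so they were lower as a group in the overexpressed cells alone.

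Outside these lists, the genes with the largest shared falls had varied functions. Egr1, an immediate early transcription factor induced by growth factors, measured 1748, 3274 and 1884 units in wildtype, 840.3, 578.0 and 645.7 in overexpressed and 975.6, 1174 and 878.7 in knockdown arrays. It fell by 1.40 ± 0.19 (adjusted p = 0.00718) and was called with each array left out in turn. It was the 1 member of 35 immediate early genes that fell, against 1 that rose (Dusp2, 0.65 ± 0.12), and the list's median was 0.09. Ppp2r5c, a regulatory subunit of protein phosphatase 2A, measured 774.2, 615.9 and 559.5 units in wildtype, 257.2, 300.7 and 185.5 in overexpressed and 327.4, 334.8 and 309.4 in knockdown arrays. It fell by 1.15 ± 0.16 (adjusted p = 0.00718). Of its 5 other probe sets 2 fell (-2.07 ± 0.24 and -0.54 ± 0.12), 2 had lower values that did not pass and 1 had a change of 0.01 ± 0.20. The set at -0.54, the brightest, changed by -0.91 in overexpressed and -0.17 in knockdown cells and did not meet the criterion. The set at 0.01 changed by -0.34 and 0.36 in the same order.

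Ddx17, an RNA helicase of splicing and microRNA processing, had 3 probe sets and all fell. On the one ranked first it measured 206.6, 216.3 and 129.7 units in wildtype, 16.3, 16.4 and 22.1 in overexpressed and 96.4, 18.9 and 50.9 in knockdown arrays, so the low values lie near the 16 units added before the logarithm. The pooled change there was -2.07 ± 0.34 (adjusted p = 0.013). On the brightest probe set it was -0.93 ± 0.15 (adjusted p = 0.0113), from 2455, 1694 and 1349 wildtype units to 826.3 to 879.2 in overexpressed and 965.9 to 1018 in knockdown arrays. Slc47a1, a proton-coupled exporter of organic cations, fell by 1.65 ± 0.25 (adjusted p = 0.00991), although its wildtype arrays themselves ran from 1582 through 927.2 to 562.2 units. Without wildtype B, adjusted p was 0.0518 for Ppp2r5c, 0.063 for Slc47a1 and 0.0665 for the brightest Ddx17 probe set, and the dimmer Ddx17 probe set was not called without wildtype A or B (up to 0.0819).

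Lama4, Des, Lima1 and Optc were also among the 15 named lower genes. Lama4, a laminin chain of vascular and neural basement membranes, measured 803.3, 822.4 and 704.4 units in wildtype, 412.8, 392.3 and 517.5 in overexpressed and 372.3, 515.3 and 424.9 in knockdown arrays. It fell by 0.81 ± 0.13 (adjusted p = 0.0115), by 0.80 and 0.81 in overexpressed and knockdown cells, and its second probe set fell by 0.60 ± 0.11. Des, the muscle intermediate filament desmin, fell by 1.65 ± 0.35 (adjusted p = 0.033), but overexpressed A, at 136.0 units, lay close to wildtype A, at 165.4, and its other probe set had a change of 0.38 ± 0.32. Lima1, which cross-links actin filaments, fell by 1.26 ± 0.25 (adjusted p = 0.0241), with values of -0.56 ± 0.19 and -0.37 ± 0.14 on its other 2 probe sets that did not pass, and Optc, a small matrix proteoglycan, by 1.16 ± 0.20 (adjusted p = 0.0151). The calls of Lama4, Lima1 and Optc were lost without wildtype A or B, that of Lima1 also without overexpressed B, and that of Des without any of 7 arrays (all but wildtype C and overexpressed A), with adjusted p up to 0.165 among the 4 genes.

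The remaining named lower genes were Slc8b1, Zfp688, Fam117a, Abcc5 and Sh3rf1. Slc8b1, the sodium and calcium exchanger of mitochondria, was the most uniform of them, at 698.0, 681.9 and 625.3 units in wildtype, 382.3, 324.7 and 323.4 in overexpressed and 379.9, 359.8 and 430.0 in knockdown arrays. It fell by 0.84 ± 0.11 (adjusted p = 0.00619), with an adjusted p of 0.0518 without wildtype B. The zinc finger gene Zfp688 fell by 1.43 ± 0.25 (adjusted p = 0.0154) and Fam117a by 1.07 ± 0.20 (adjusted p = 0.022). Abcc5, an exporter of cyclic nucleotides and other anions, fell by 0.93 ± 0.22 (adjusted p = 0.0472), and was not called with any 1 array left out (adjusted p from 0.0526 to 0.223). None of the 6 other Abcc5 probe sets was called, at -0.66 to 0.20, and the brightest changed by -0.75 in overexpressed and -0.11 in knockdown cells. Sh3rf1, a scaffold of the JNK pathway, fell by 0.86 ± 0.19 (adjusted p = 0.0414), by 0.86 and 0.87 in overexpressed and knockdown cells, and among the fits with an array left out was called only without wildtype C. Its 2 other probe sets, at -0.78 ± 0.38 and -0.51 ± 0.26, did not pass. Zfp688 lost its call without wildtype B (0.0987) and Fam117a without wildtype A or B (up to 0.12).

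Higher genes outside the cell cycle lists included Manf, Snx5 and Tubb6. Manf, a secreted protein of the endoplasmic reticulum that is induced by unfolded proteins and protects neurons, measured 963.1, 1182 and 1719 units in wildtype, 2840, 2823 and 2690 in overexpressed and 2527, 2206 and 2279 in knockdown arrays. It rose by 1.02 ± 0.14 (adjusted p = 0.00792), with an adjusted p of 0.0599 without wildtype B. Of 53 measured genes of endoplasmic reticulum and amino acid stress 3 rose and 1 fell, with a median of 0.00. These counts ran from 0 and 0 without wildtype B (9 higher and 5 lower at an unadjusted p under 0.05 in limma) to 5 and 3 without wildtype C. The other member that moved the same way was Psat1, an enzyme of serine synthesis (0.38 ± 0.08, adjusted p = 0.0388). Snx5, a sorting nexin of the retromer pathway, rose by 1.36 ± 0.17 (adjusted p = 0.00619), from 128.0, 108.2 and 160.3 wildtype units to 429.5 to 519.0 in overexpressed and 217.3 to 340.7 in knockdown arrays. Its 4 other probe sets had changes between 0.00 and 0.41 that did not pass the test. The brightest Snx5 probe set, with a wildtype mean of 1267 units against 132.2, changed by 0.16 in overexpressed and -0.16 in knockdown cells. Tubb6, a beta-tubulin, rose by 1.0 ± 0.19 (adjusted p = 0.0206), slightly more in knockdown (1.04) than in overexpressed cells (0.96). Snx5 had an adjusted p of 0.0515 without wildtype B, and Tubb6 lost its call without wildtype A or B (up to 0.0903).

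The sympathetic identity of the cells showed little shared change. Of 59 measured neuronal and catecholaminergic genes 1 rose and 4 fell, and 2 moved the same way. Dbh, which converts dopamine to noradrenaline, measured 1266, 1650 and 1679 units in wildtype, 2499, 2230 and 2229 in overexpressed and 2313, 2447 and 2480 in knockdown arrays. It rose by 0.63 ± 0.10 (adjusted p = 0.0108), by 0.60 and 0.66 in overexpressed and knockdown cells, and had an adjusted p of 0.0518 without wildtype B. Scg3, a granin of secretory vesicles, fell by 0.35 ± 0.07 (adjusted p = 0.0273). The other lower calls were carried by the overexpressed arrays: Ache, the acetylcholinesterase, changed by -1.40 in overexpressed and -0.10 in knockdown cells, and Nrcam, a neuronal adhesion molecule, by -1.03 and -0.16. Th had a pooled change of -0.20 (adjusted p = 0.31). The count of 4 lower calls was 2 without wildtype A, 0 without wildtype B (10 at an unadjusted p under 0.05 in limma) and 6 without wildtype C.

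In the signalling list of 71 Wnt, Notch, BMP and TGFb genes 3 rose and 4 fell, and 1 moved the same way. That was Dkk3, a secreted relative of Wnt antagonists, which measured 2897, 2359 and 2234 units in wildtype, 1214, 965.2 and 1248 in overexpressed and 1582, 1431 and 1579 in knockdown arrays. It fell by 0.90 ± 0.11 (adjusted p = 0.00474) and was called with each array left out in turn. A second Dkk3 probe set was called too (-0.84 ± 0.15, adjusted p = 0.0201 in limma). That set changed by -1.30 in overexpressed and -0.38 in knockdown cells and did not meet the criterion. Fst, the activin antagonist follistatin, measured 172.5, 203.3 and 197.8 units in wildtype, 932.2, 1202 and 889.7 in overexpressed and 264.6, 324.1 and 258.7 in knockdown arrays. All 6 manipulated arrays were above wildtype, but its change of 2.30 in overexpressed cells was 4.39 times that of 0.52 in knockdown cells. The BMP targets Id3 and Id1 were called as well, at 1.13 ± 0.14 and 0.61 ± 0.08, but neither met the criterion for moving the same way. On dimmer probe sets Bmp7 was called lower (-1.62 ± 0.19 and -1.07 ± 0.20) and Bmpr1a higher (0.52 ± 0.10). None of these met the criterion, and the brightest probe sets of Bmp7 and Bmpr1a were not called. The counts of 3 and 4 were 1 and 2 without wildtype B, 3 and 2 without wildtype A and 3 and 6 without wildtype C, and the lower count was 2 without any 1 manipulated array.

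Lysosomal genes had a shared direction in value but few calls. Of 25 measured, 24 had a lower pooled value, with a median of -0.27 (-0.45 in overexpressed and -0.14 in knockdown cells), against 11634 of 22626 probe sets with a higher value overall. The list's median was 0.13, 0.01 and -0.18 in wildtype arrays A, B and C, -0.48, -0.52 and -0.36 in overexpressed and -0.20, -0.20 and -0.10 in knockdown arrays, so knockdown C lay above wildtype C. Scarb2, a lysosomal membrane protein, fell by 0.47 ± 0.06 (adjusted p = 0.00718), and Tpp1, a lysosomal peptidase, by 0.42 ± 0.10 (adjusted p = 0.0485), the latter moving the same way. Without wildtype B neither was called (adjusted p = 0.0518 for Scarb2), and Tpp1 was called only without wildtype C (up to 0.195). In the whole protein turnover list of 56 genes these were the 2 lower calls, and 0 rose in limma, with 10 higher at an unadjusted p under 0.05. The share called in that list, 3.57%, was near the 3.64% over all genes read by their brightest probe set. A dimmer Tpp1 probe set was called as well (-0.62 ± 0.14, adjusted p = 0.0476 in limma). It changed by -0.91 in overexpressed and -0.32 in knockdown cells and did not meet the criterion.

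Hypoxia and glycolysis genes had a pooled median of -0.02 that hid opposite changes, -0.33 in overexpressed and 0.32 in knockdown cells. Of 40 measured, 23 differed between the manipulated groups, while 3 were higher and 2 lower in the pooled contrast. The 1 member moving the same way was Egln1, the oxygen sensor that marks HIF for destruction, at 394.9, 507.1 and 637.8 units in wildtype, 671.0, 759.6 and 826.9 in overexpressed and 846.5, 1099 and 967.0 in knockdown arrays. It rose by 0.74 ± 0.14 (adjusted p = 0.0246) and kept its call with 3 of the 9 arrays left out (wildtype C, overexpressed A and knockdown A; up to 0.117). Its second probe set, with a wildtype mean of 508.2 units against 513.3, had a change of -0.11 ± 0.17 (adjusted p = 0.822). Hk2, the hexokinase of rapid glycolysis, changed by 0.26 and 1.02, and Aldoc, a brain aldolase, by -2.48 and 0.15 in overexpressed and knockdown cells. The pooled counts of 3 and 2 became 0 and 1 without wildtype A or B, and 5 higher without wildtype C; without an overexpressed or knockdown array the higher count was 0 or 1.

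On the brightest probe set of each gene, the other lists held 0 to 1 members that moved the same way. The share called in these lists ran from 0% to 16.7%, against 3.64% over all 12393 genes read that way. The shares in splicing (5%), blood marker (4.17%), neural crest (2.22%) and p53 and apoptosis genes (1.72%) were near that of all genes. Of 30 heat shock proteins 2 fell, and Hspa4l, a nucleotide exchange factor of HSP70, moved the same way (-0.54 ± 0.09, adjusted p = 0.0115), while its second probe set, at -0.23 ± 0.11, did not pass. Of 60 splicing and RNA processing genes 2 rose and 1, Ddx17, fell. Of 34 sterol and fatty acid genes 4 fell, among them Acss2, which makes acetyl-CoA (-1.23 in overexpressed and -0.24 in knockdown cells). Of 53 adhesion and axon guidance genes 3 fell, with Adam23 at -2.62 and -0.19. Of 30 transport and detoxification genes 1 rose and 2 fell, of 45 neural crest regulators 1 rose (Dlx1, at 2.12 and 0.13) and of 58 p53 targets and apoptosis genes 1 fell (Pdcd4, at -1.44 and -0.44). In oxidative phosphorylation 0 of 61 genes were called in limma, with 10 at an unadjusted p under 0.05, against 3825 of all 22626 probe sets. Among cell type markers 0 of 28 fibroblast genes were called (5 unadjusted), 1 of 18 glia genes rose and 2 fell, and 1 of 24 blood genes, Cd74, fell. Without wildtype B, 0 of the 441 members of these 11 lists were called in limma, with 74 at an unadjusted p under 0.05.

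The lists read each gene by its brightest probe set, and dimmer ones sometimes gave another answer. Of 949 other probe sets of list genes, 56 were called (5.90%) and 15 moved the same way (1.58%). For 10 of these 15 the brightest probe set was not called: those of Sox9, Coro1a, Sema6a, Kif2c, Bik, Gadd45b, Psma6, Rbm39, Abcc5 and Rpl37a. Sox9, a transcription factor of neural crest and glia, measured 6.4, 15.4 and 9.7 units in wildtype, 125.6, 67.8 and 75.5 in overexpressed and 93.2, 57.1 and 121.8 in knockdown arrays on its dim probe set. That set rose by 1.97 ± 0.27 (adjusted p = 0.00718), by 1.97 and 1.98 in overexpressed and knockdown cells, with wildtype values below the 16 units added before the logarithm. The brighter Sox9 probe set had a change of 0.41 ± 0.13 that did not pass (adjusted p = 0.141). Coro1a, an actin-binding protein used as a blood cell marker, rose by 0.62 ± 0.13 (adjusted p = 0.0333) on its dimmer probe set and had 0.45 ± 0.11 (adjusted p = 0.0564) on the brighter. Sparc, a matrix glycoprotein among the fibroblast markers, fell by 0.84 ± 0.16 (adjusted p = 0.0238) on a dimmer probe set, from -1.20 in overexpressed and -0.47 in knockdown cells, and had -0.67 ± 0.20 (adjusted p = 0.116) on the brightest. Among the 30 genes named by rank, 14 had other probe sets. In 6 of the 14 at least 1 other was called in the same direction, and in 5 at least 1 had the opposite sign.

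**Figure D4:**
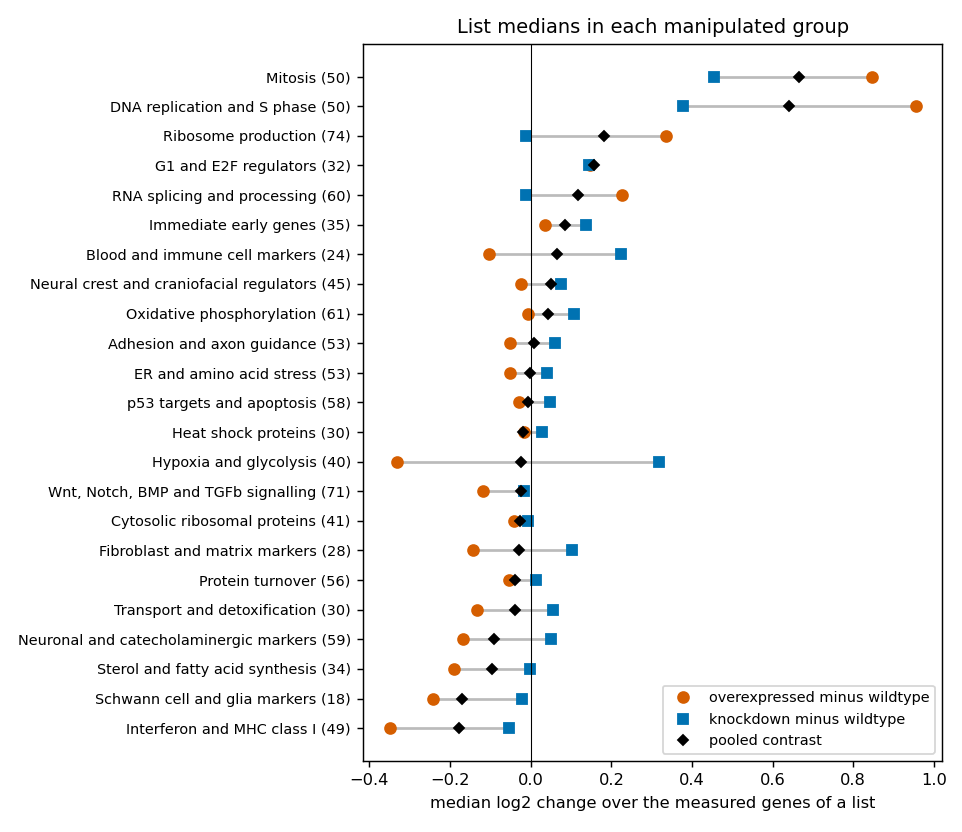
Median log2 change over the measured genes of each of 23 lists, with the number of genes in brackets, for overexpressed minus wildtype (circles), knockdown minus wildtype (squares) and the pooled contrast. Replication and mitosis genes stand apart at pooled medians of 0.64 and 0.66, with the overexpressed and knockdown medians both above 0; hypoxia and glycolysis genes have their medians on opposite sides of 0.

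The 3 probe sets called in knockdown over wildtype alone, named here after their values were seen, show how the contrasts relate. Arih2, a ubiquitin ligase, measured 2428, 2315 and 2138 units in wildtype, 1278, 1683 and 1747 in overexpressed and 1163, 1158 and 1101 in knockdown arrays. It moved the same way, with a pooled change of -0.78 (adjusted p = 0.00678) and a larger fall in knockdown (1.0) than in overexpressed cells (0.55). Srrm1, a splicing coactivator, changed by -2.35 in knockdown and by -0.11 in overexpressed cells on probe set 1420935_a_at. Its pooled change there of -1.23 (adjusted p = 0.0162) thus belongs to the knockdown arrays. The brightest Srrm1 probe set had a pooled change of -0.35 and was not called. The third, probe set 1438009_at, is assigned to several genes in the annotation and is not named. It rose by 0.88 in knockdown and 1.38 in overexpressed cells and was above wildtype on all 6 arrays.

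Several of the largest pooled changes were not shared. Dlk1, a Notch ligand relative that marks immature sympathetic cells, had the smallest adjusted p among named genes (0.000899) at a pooled change of -1.76 ± 0.14. Its intensities were 1192, 1111 and 1135 units in wildtype, 62.2, 93.9 and 108.1 in overexpressed and 1071, 1100 and 1217 in knockdown arrays. The knockdown arrays overlapped wildtype, and the change was -3.51 in overexpressed and -0.02 in knockdown cells. Clu, a secreted chaperone, changed by -2.84 and -0.51, and Trip13, an ATPase of the spindle checkpoint, by 2.12 and 0.95 in overexpressed and knockdown cells. Trip13 had 1 knockdown array, C, at 654.3 units, below wildtype C at 665.5. Of all 674 pooled calls, 269 had such overlap, and 170 more had all 6 arrays beyond wildtype but a smaller change under 0.5 of the larger.

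Over the chromosomes, the share of probe sets moving the same way ran from 0.743% on chromosome 1 to 2.25% on chromosome 15, with 1.65% on the X chromosome, where 1 was higher and 10 were lower. Of the 207 named genes that moved the same way, 51 were in any of the 23 lists and 156 in none. The replication and mitosis lists held 26 of the 116 higher genes. The lists thus describe only some of what moved.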

How the data were processed

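Total RNA of 9 N1E-115 samples had been hybridised to a 1-colour array with probe sets named in the Affymetrix way. The authors deposited linear intensity values, 1 per probe set and array; the software, background correction and scaling behind them were not given in the sources used here. Trimmed of 2% at either end, every array had a mean of about 500.2, so the values had been scaled to a common level. No detection calls were used.

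The 64 control probe sets were left out. Of the other 22626, the platform annotation gave 20380 a single gene symbol, 691 several and 1555 none; only the first kind is named, and 20351 matched a RefSeq gene of GRCm38.p6. Tests ran on log2(intensity + 16), a scale on which dim probe sets appear to change less. With limma 3.58.1 under R 4.3.3, lmFit and eBayes (trend over mean level) fitted a mean per group on all 9 arrays, and Benjamini-Hochberg adjustment ran over all 22626 probe sets. Changes are log2 values ± SE from that fit. The number of arrays limits the precision.

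Named genes were the 15 higher and 15 lower with the largest smaller-of-both changes (brighter side above the median probe set), up to 3 members per list by p, the 3 higher and 3 lower largest pooled changes with the groups differing, and Tcof1. Other called list members serve as examples and were chosen after their values were seen. The comparison, the 23 lists (1177 entries, 1051 measured, each gene by its brightest probe set) and the rules were chosen with earlier results of these data known. Lists had no test of their own. Deviations of arrays with the same letter correlated at -0.01 to 0.10 between groups, so letters were not used as pairs. Alternatives were other pseudocounts, filters, normalizations, weights, a common mean for the manipulated arrays, letter blocks, limits on the ratio or fold, and each array left out.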

Additional observations from a re-analysis of the deposited data

Results flagged for a closer look

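For 48 named probe sets the overexpressed and knockdown groups themselves differed at an adjusted p under 0.05 in limma, so the pooled change averages unequal changes. Each value in brackets is the overexpressed minus knockdown log2 difference. No explanation was tested.

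Of the genes that moved the same way by the criterion, 4 of the 30 named still differed in size: Mcm5 (0.86), Pclaf (0.95), Snx5 (0.84) and Cenpn (0.73). All 4 were higher in both groups and higher again in the overexpressed cells.

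The overexpressed cells also had the higher value among other replication and mitotic genes, in Trip13 (1.17), Pcna (0.68), Mcm10 (1.25) and Mybl2 (0.89). In ribosome production it was higher in Nop56 (1.15), Exosc2 (0.65) and Tsr1 (0.87), and in RNA processing in Ddx39b (0.46) and Snrpb (0.46). It was higher too in the signalling, stress and other list members Fst (1.77), Dlx1 (1.99), Mthfd2 (0.63), Hsph1 (0.45), Psmc4 (0.50), Gpx1 (0.67), Dusp2 (0.69) and Ngfr (0.50). Tcof1 was higher by 1.09 on probe set 1423600_a_at and by 1.03 on 1423601_s_at.

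The overexpressed cells had the lower value in the antiviral genes Rsad2 on probe set 1436058_at (-1.38) and Ifit1 (-1.0). In metabolism they were lower in Aldoc (-2.63), Hk2 (-0.76), Acss2 (-0.99), Tm7sf2 (-0.80) and Pmvk (-1.19), and in neuronal, adhesion and Notch genes in Ache (-1.31), Nrcam (-0.87), Adam23 (-2.43), Itga3 (-0.45), Sema4d (-0.76) and Dlk1 (-3.48). They were lower as well in Pdcd4 (-1.0), Sel1l (-0.61), Scarb2 (-0.36), Gstm1 (-0.87), Gstm2 (-0.96) and Dusp6 (-0.62), and in the cell type markers Pdgfrb (-1.67), Sparc (-1.08), Clu on probe set 1437689_x_at (-2.33), Clu on probe set 1454849_x_at (-1.29), Erbb3 (-0.46) and Cd74 (-1.05).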

How the results depend on the processing

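No named call changed direction under any alternative run, but many lost the threshold: of 79, all 79 with one mean for the manipulated arrays, 66 without wildtype B, 42 without the mean-variance trend and 39 without wildtype A. Against 674 pooled calls and 235 moving the same way, the counts were 1050 and 333 when dim probe sets up to the 40th percentile were dropped, 1021 and 340 with array quality weights, 419 and 149 with a common array median, and 150 and 68 without the mean-variance trend. With one mean for all 6 manipulated arrays, whose spread then holds the difference between the groups, 1 and 1 were left (2622 at an unadjusted p under 0.05): Ppp2r5c on probe set 1434206_s_at, at -2.07 with an adjusted p of 0.0432. Leaving out each array gave 35 to 1168 pooled calls and 16 to 616 moving the same way, lowest without wildtype B and highest without wildtype C. Asking for at least 1.5-fold left 431 pooled calls. With no limit on the ratio 405 moved the same way, and with each group's own unadjusted p under 0.05 in place of the pooled call 982 did. The letter as a replicate block gave 528 and 185. The other alternatives (pseudocounts of 1 and 64, quantile normalization, no probe sets of shared types) gave 600 to 697 and 202 to 241. Signal near background limits dim probe sets such as the first of Ddx17.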
